A study of Mus musculus with 15 samples.

Results

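The xenobiotic metabolism enzyme genes examined here were the protein-coding mouse genes whose symbols start with Cyp or Ugt followed by a digit, or with Sult, Gsta, Gstm, Gstp or Gstt. By this rule on names, 160 of 21887 protein-coding RefSeq genes were members. They were set beside regions of p53 chromatin immunoprecipitation sequencing (ChIP-seq), which sequences DNA pulled down with a protein by an antibody. Chromatin came from the liver, the spleen and the thymus of mice labelled wild type. For every organ 2 libraries were made from untreated animals and 2 from animals irradiated with X-rays (2 Gy, 3 h before collection), with 1 input library of chromatin that had no antibody step, which makes 15 libraries. Neither the age and sex of the mice nor any strain or allele beyond wild type is given in the labels used here.

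One list of regions per organ was analysed, with 3872 regions in liver, 2604 in spleen and 2405 in thymus. The labels attach each list to all 5 libraries of its organ, and its name refers to irradiation and to IgG, so untreated and irradiated mice could not be compared. There were no replicate lists and read depth is unknown, and all values below are therefore descriptions of these 3 lists without a test between organs. Together the lists held 4137 distinct regions, 1930 of them shared by all 3, so values in different organs are not independent. A region list holds no expression values, and the tissue labels could not be checked against marker genes. Scores are the authors' own and are given only as rank percentiles within a list, where 100 is the highest score.

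The members act in sequence on drugs, pollutants, steroids, fatty acids and bile acids. Cytochrome P450 enzymes, encoded by Cyp genes, oxidise such compounds, and the products are then coupled to glucuronic acid by UDP-glucuronosyltransferases (Ugt), to sulfate by sulfotransferases (Sult) or to glutathione by glutathione S-transferases (Gst). Hepatocytes express many of these genes at high levels, and many lie in tandem arrays of similar genes that arose by duplication. p53 is a transcription factor activated by DNA damage that binds pairs of a decamer called the p53 half-site.

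Few of the enzyme genes had a p53 region nearby, and each of those that did carried it inside the gene. A gene was counted when a region overlapped it or lay at most 5 kb away. In the liver list this held for 5 of 160 members (3.13%, exact Clopper-Pearson 95% interval 1.02 to 7.14), against 15.2% of all coding genes. The spleen list gave the same 5 members (3.13%, 1.02 to 7.14), against 8.11% of coding genes, and the thymus list gave 4 (2.50%, 0.685 to 6.28), against 7.17%. The 5 genes were Cyp20a1, Cyp4f14, Cyp4f16, Cyp4f17 and Gstp3, and the other 155 members had no region in any list. The intervals cover counting error only and take genes as separate units, although members of an array share their surroundings.

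The counts were also low beside coding genes of the same lengths. The members had a median length of 21196 bp against 17169 bp over all coding genes, and the liver share among other coding genes ran from 1.87% in the shortest of 10 length classes to 22.7% in the longest. Weighted to the members' make-up over these classes, the share of other coding genes was 16.9% for liver, 8.47% for spleen and 7.33% for thymus. At those rates 160 genes would give 27.1, 13.5 and 11.7 genes with a region, where 5, 5 and 4 were found.

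**Figure D1:**
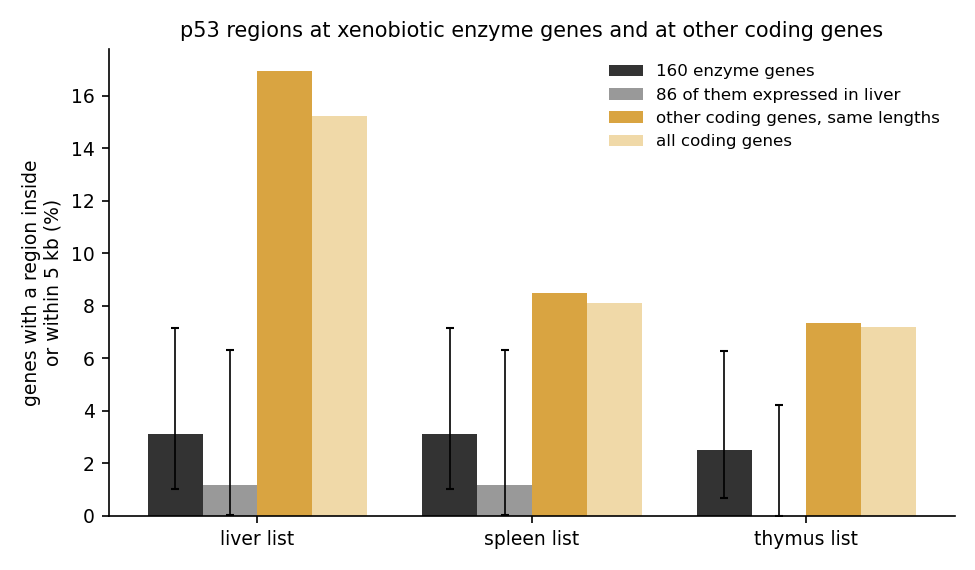
Share of genes (vertical axis, percent) with a region inside or within 5 kb in the 3 organ lists. Bars show the 160 enzyme genes and the 86 of them listed from general knowledge as expressed in liver. Beside these are other coding genes at the members' lengths, and all coding genes. Error lines are exact 95% intervals of the shares of members; the dark bars stand at 3.13%, 3.13% and 2.50%, below the pale bars of all coding genes at 15.2%, 8.11% and 7.17%.

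Phase 1 oxidation of foreign compounds is chiefly the work of P450 families 1 to 3, and none of their 60 genes had a region within 5 kb in any list (upper exact 95% limit 5.96%). The median distance from these genes to the nearest liver region was 467 kb, against 123 kb over all coding genes. The closest was Cyp2d22, a member of the array that metabolises many drugs in mice, at 16.1 kb in liver and 124 kb in both spleen and thymus. Cyp1a2, the P450 of caffeine and aromatic amine oxidation, lay 28.6 kb from a liver region, 36.3 kb from a spleen region and 196 kb from a thymus region. Cyp2e1, which oxidises ethanol and paracetamol, lay 80.3 kb from the nearest region in all 3 lists.

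Distances differed widely between the arrays of families 2 and 3, and the 8 Cyp2d genes had a liver median of 149 kb. The 15 Cyp2c genes, a large mouse array of drug and arachidonic acid metabolism, had a median distance of 1213 kb to a liver region. The 9 Cyp3a genes, relatives of the main human drug-oxidising P450, had a median of 477 kb, with Cyp3a11 at 687 kb in liver and 712 kb in spleen and thymus. Cyp2b10, a classical target of the nuclear receptor CAR, lay 183 kb from a region in each list. Of the members listed as expressed in liver, the 5 farthest from a liver region were Cyp2r1 and 4 Cyp2c genes. Cyp2r1, a vitamin D 25-hydroxylase, lay at 1689 kb, and Cyp2c37, Cyp2c69, Cyp2c54 and Cyp2c50 at 1470, 1447, 1409 and 1369 kb. For Cyp2r1 a region of the spleen and thymus lists lay much closer, at 83.4 kb.

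P450 family 4, whose enzymes hydroxylate the ends of fatty acids and leukotrienes, held 3 of the 5 genes with a region. All 3 were among the 9 Cyp4f genes, whereas the 8 Cyp4a genes, targets of PPAR alpha, lay between 216 and 584 kb from a liver region. Of the 20 genes of family 4, 3 had a region within 5 kb in liver and 3 in spleen (15% each, interval 3.21 to 37.9). In thymus 2 had one (10%, interval 1.23 to 31.7). These shares were not low beside all coding genes, at 15.2%, 8.11% and 7.17% in liver, spleen and thymus, though the intervals are wide. Cyp4f16 (chromosome 17, 32536545 to 32551798, mm10) held a region of 250 bp at 32542301 to 32542550, 5744 bp after its start. Its score percentile was 67.5 (liver), 88.4 (spleen) and 84.6 (thymus). Cyp4f17, the neighbouring gene, held one of 150 bp at 32520001 to 32520150, with percentiles of 40.3, 81.5 and 53.7 in the same order. Ranked only among the 1930 regions that all 3 lists share, the Cyp4f16 region had percentiles of 64.3 in liver and 85.3 in spleen, and the Cyp4f17 region 39.02 and 76.8. Both regions thus ranked lower in liver than in spleen, also when regions of the liver list alone were left out.

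Of the 86 members listed from general knowledge as expressed in liver, Cyp4f14 was the only one with a region within 5 kb. Its region of 50 bp (chromosome 17, 32911201 to 32911250) lay 5837 bp after the nearest of 4 annotated starts. Its percentile was 9.09 for liver and 68.2 for spleen. The thymus list did not hold it, and the nearest region there was 361 kb away. Cyp4f13, the next gene of the array, was 13.4 kb from the same region. Across the 495 kb of the array there were 5 distinct regions, 4 in the liver list, 5 in the spleen list and 2 in the thymus list. The 2 outside Cyp4f genes lay between Cyp4f15 and Cyp4f14, at 32871601 to 32871750 in spleen alone and at 32879001 to 32879150 in liver and spleen.

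**Figure D2:**
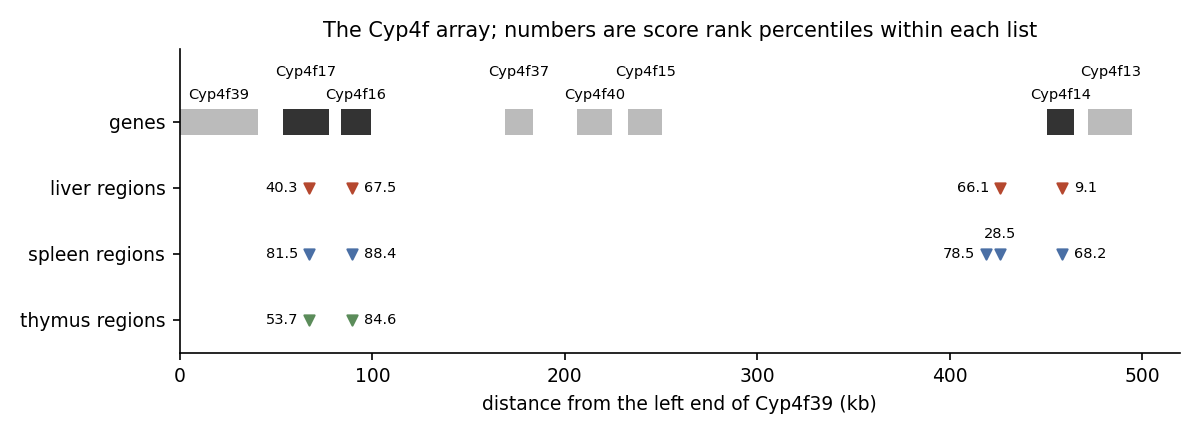
The array of 8 Cyp4f genes on chromosome 17, drawn to scale as distance from the left end of Cyp4f39 (horizontal axis, kb). Dark boxes are genes with a region, grey boxes genes without one, and triangles are regions of each list labelled with their score rank percentile; the regions in Cyp4f17 and Cyp4f16 appear in all 3 lists and that in Cyp4f14 in liver and spleen.

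Among the 19 P450 genes outside families 1 to 4, most of which act on sterols, steroid hormones, retinoids and vitamin D, Cyp20a1 alone had a region. Cyp20a1, an orphan P450 with no settled substrate, spans 60343300 to 60388060 on chromosome 1 and held 2 regions. One of 350 bp (60350301 to 60350650) lay 7001 bp after the start, was in all 3 lists, and had percentiles of 88.1 (liver), 86.3 (spleen) and 74.8 (thymus). The other, of 50 bp (60343501 to 60343550), lay 201 bp after the start and was in the liver list alone, at the 79.96 percentile. It was the only region of any list within 1 kb of the promoter window of a member, among the 130 with a promoter entry. Cyp27b1, which makes active vitamin D, was the nearest member beyond the 5 kb window, at 8.52 kb in liver (chromosome 10, 127063401 to 127063550), 536 kb in spleen and 236 kb in thymus. Enzymes of bile acid synthesis were farther off. Cyp7a1, the rate-limiting one, lay 90.0 kb from a liver region and 212 kb from a spleen or thymus region, and Cyp8b1, the 12-alpha-hydroxylase, 201 kb from one in liver and thymus and 298 kb in spleen.

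None of the 22 genes placed by name among the UDP-glucuronosyltransferases had a region within 5 kb (upper limit 15.4%). The same held for the 21 placed by name among the sulfotransferases (upper limit 16.1%). Both limits lie above the 15.2%, 8.11% and 7.17% of all coding genes in liver, spleen and thymus. These counts alone therefore do not set either family below coding genes at large. The 9 Ugt1a genes are alternative first exons joined to common last exons, and Ugt1a1 conjugates bilirubin. All 9 lay 14.7 to 15.7 kb from a single liver region of 50 bp (chromosome 1, 88234701 to 88234750), which ranked at the 1.11 percentile. The nearest spleen and thymus region was 225 kb or more from each. The 10 Ugt2 genes had a median distance of 326 kb in every list. Sult3a1, the sulfotransferase closest to a region, lay 12.4 kb from one that all 3 lists share (chromosome 10, 33891901 to 33892150). Sult1a1, the phenol sulfotransferase, was 23.2 kb from a liver region and 190.2 kb from a spleen or thymus region. Sult2a8, a hepatic hydroxysteroid sulfotransferase, was 1242 kb from a region in each list.

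Of 18 glutathione S-transferase genes, 1 had a region. Gstp3, of the pi class, held 50 bp of chromosome 19 (4058201 to 4058250) that lay 1197 bp after its start, inside a gene of 2136 bp. The region was in all 3 lists, with percentiles of 32.7 (liver), 44.2 (spleen) and 61.5 (thymus). Its paralogs Gstp2 and Gstp1 lay 16.0 and 20.3 kb from that region, with none closer. The 4 alpha class genes ranged from 83.2 to 272 kb in liver, the 7 mu class genes from 103 to 216 kb and the 4 theta class genes from 84.1 to 140.1 kb. In the thymus list the theta genes were farther from a region, with a median of 637 kb against 111 kb for liver and spleen.

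**Figure D3:**
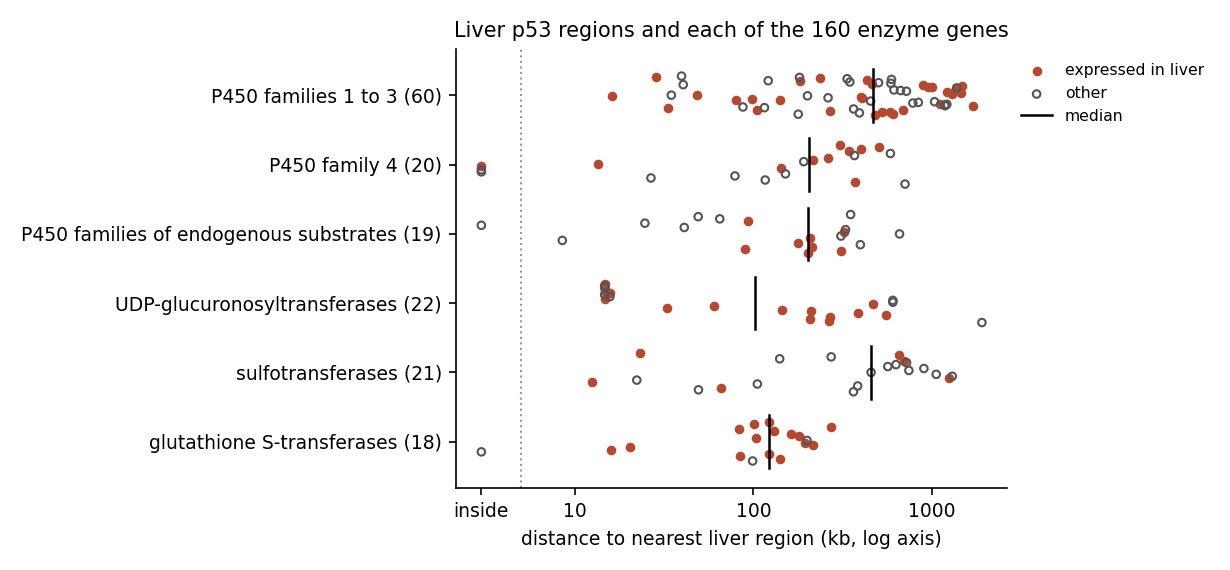
Distance from each of the 160 enzyme genes to the nearest liver region (horizontal axis, kb, log scale, with genes that hold a region at the left) by role (vertical axis, number of genes in parentheses). Filled points are the 86 genes listed as expressed in liver, open points the others, vertical bars the medians and the dotted line 5 kb. The median is 467 kb for P450 families 1 to 3 and 102 kb for UDP-glucuronosyltransferases, and 5 genes stand left of the dotted line.

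Members listed as expressed in liver were not closer to liver regions than coding genes at large. This list of 86 genes was written from general knowledge, since the files give no expression. Which of the members with a region count as expressed in liver rests on this list. The number with a region within 5 kb was 1 for liver (1.16%, interval 0.0294 to 6.31), 1 for spleen and 0 for thymus, against 14.4, 7.19 and 6.16 genes at the rates of other coding genes of the same lengths. Median distances were 212, 273 and 344 kb for the liver, spleen and thymus lists, against 123, 228 and 256 kb over all coding genes. Shares with a region within 100 kb were 27.9%, 16.3% and 9.30%, against 45.6%, 31.2% and 29.1% of coding genes. At 1 Mb the shares met, at 88.4% against 89.4% in liver. The gap was thus one of short and middle distances.

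**Figure D4:**
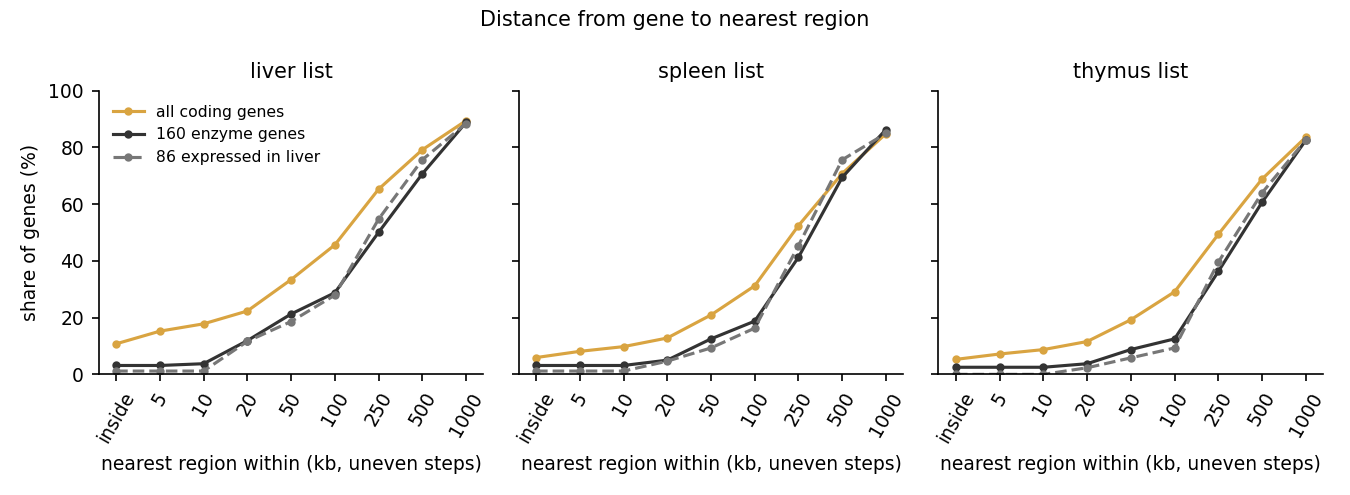
Share of genes (vertical axis, percent) whose nearest region lies within each distance (horizontal axis, kb, in uneven steps) in the liver, spleen and thymus lists. Lines are for all coding genes, the 160 enzyme genes and the 86 listed as expressed in liver. In liver the curves stand at 45.6%, 28.8% and 27.9% at 100 kb and meet near 89% at 1000 kb.

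Most of the tandem arrays held no region in any list, with the Cyp4f and Gstp arrays as exceptions. Joined where bodies lay within 100 kb of each other, the members formed 65 loci, of which 29 held 2 or more genes and 124 of the 160 members. A liver region lay in or within 5 kb of 4 loci, a spleen region of 4 and a thymus region of 3. Of the loci with 2 or more genes, this held for 3, 3 and 2. All 65 loci with their margins covered 7.80 Mb and held 6 liver, 5 spleen and 4 thymus regions, or 0.769, 0.641 and 0.513 per Mb. The 29 loci of 2 or more genes covered 6.39 Mb and held 4, 4 and 3 regions, or 0.626, 0.626 and 0.469 per Mb. Loci include the gaps between their genes. The member genes alone with their margins covered 5.41 Mb at 1.11, 0.925 and 0.740 regions per Mb. All coding genes counted in the same way as the member genes covered 1182 Mb at 2.44, 1.36 and 1.23. The 100 kb rule split the Cyp4f array into 2 loci and left out the regions between them. Taken whole and without margins, its 495 kb held 4 liver, 5 spleen and 2 thymus regions. That is more per Mb than at coding genes in each list, for an array singled out after its regions were seen. Long loci without any region in any list were, among others, Cyp2c29 to Cyp2c69, Sult2a5 to Sult2a6, Cyp2b23 to Cyp2t4, Cyp3a41a to Cyp3a59 and Cyp4a29 to Cyp4b1, with spans of 599.7, 630.9, 493, 421 and 406 kb.

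Other genes with a like-named neighbour, here called tandem families, also had few regions. These were 4160 non-member coding genes with another coding gene within 100 kb whose symbol starts with the same letters. Shared letters need not mean a common origin, and provisional symbols (such as Gm, LOC and Rik names) were not grouped. Of the 4160 genes, 4.21% had a liver region, 2.67% a spleen region and 2.36% a thymus region within 5 kb. Without the olfactory and vomeronasal receptor genes (Olfr and Vmn) these shares were 6.07%, 3.78% and 3.27% of 2750 genes. The 17567 coding genes outside such families, which include all those with provisional symbols, gave 17.9%, 9.44% and 8.36%. The 124 members in arrays gave 3.23%, 3.23% and 2.42%, beside the 4.21%, 2.67% and 2.36% of other tandem genes, and the 36 members on their own gave 2.78% in each list, or 1 gene. These sets were not brought to the same lengths: the median was 20051 bp for members in arrays, 5265 bp for other tandem genes and 10482 bp for those without Olfr and Vmn. This grouping was chosen after the data were seen, and its part in the low counts was not tested.

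The promoters of the members were compared next, because 7.99% of coding genes with a promoter entry had a liver region on the promoter window, the 250 bases before a start and 50 after it. The same held for 2.28% in spleen and 1.93% in thymus. RefSeq entries (GRCm38.p6) matched 130 of the 160 members, and 0 of these had a region on the window in any list. At the rates of other coding genes with the members' promoter CpG counts, given further on, 2.47, 0.746 and 0.675 genes would have one in the liver, spleen and thymus lists. The letters before the start are shown for Cyp20a1, whose start has a liver region 201 bp on, and for the liver enzymes Cyp2e1 and Cyp3a11, which have none near. They run 5′ to 3′ on the strand of the gene, with each CpG in capitals, because the share of coding genes with a region varied with promoter CpG. The stretches are chr1:60343050-60343299 on the plus strand for Cyp20a1, chr7:140763569-140763818 on the plus strand for Cyp2e1, and chr5:145879855-145880104 on the minus strand for Cyp3a11.
Cyp20a1: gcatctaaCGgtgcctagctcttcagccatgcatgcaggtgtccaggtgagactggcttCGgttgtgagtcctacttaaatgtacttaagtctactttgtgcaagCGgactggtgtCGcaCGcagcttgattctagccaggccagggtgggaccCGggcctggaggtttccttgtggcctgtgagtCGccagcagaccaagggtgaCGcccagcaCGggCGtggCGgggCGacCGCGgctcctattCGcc
Cyp2e1: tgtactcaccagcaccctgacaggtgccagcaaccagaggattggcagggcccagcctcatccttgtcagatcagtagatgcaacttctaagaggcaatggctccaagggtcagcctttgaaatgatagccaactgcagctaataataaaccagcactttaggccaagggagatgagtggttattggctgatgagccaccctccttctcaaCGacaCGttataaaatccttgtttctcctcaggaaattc
Cyp3a11: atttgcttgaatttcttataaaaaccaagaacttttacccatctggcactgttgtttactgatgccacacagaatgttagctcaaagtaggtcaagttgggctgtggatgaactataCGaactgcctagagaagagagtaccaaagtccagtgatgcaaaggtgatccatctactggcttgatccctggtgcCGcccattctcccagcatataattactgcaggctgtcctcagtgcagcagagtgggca

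The Cyp20a1 stretch held 15 CpG and 60.4% G and C, while those of Cyp2e1 and Cyp3a11 held 2 CpG each, with 48.8% and 45.6% G and C. Cyp20a1 was the one CpG-rich member with a region. The other members with a region and a promoter entry were as CpG-poor as most members, with 2 CpG in Cyp4f16, 2.5 (a median over starts) in Cyp4f14 and 4 in Gstp3, while Gstp1, with 18 CpG, had no region within 5 kb. CpG-poor promoters are typical of tissue-specific genes and CpG-rich ones of widely expressed genes. Over 130 members the median was 2 CpG, against 10 over 17492 coding genes, 22.5 over the 1397 with a liver region on the window and 8.5 over those with a window free of one. At least 10 CpG were found in 16 members (12.3%), in 50.6% of all coding genes, in 96.1% of those with a liver region there and in 46.9% of those with a window free of one.

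The share of coding genes with a region rose with promoter CpG in every list. Among other coding genes with 0 to 1 CpG, 2.14% had a liver region within 5 kb, 1.52% a spleen region and 1.44% a thymus region. With 20 CpG or more the shares were 30.5%, 13.6% and 11.9%. Of the members, 50 fell in the lowest class and 58 in the class of 2 to 4 CpG. At the rates of other coding genes in the same CpG classes, 130 members would give 9.09 genes with a liver region, 5.57 with a spleen region and 5.02 with a thymus region, where 4, 4 and 3 were found. The corresponding rates were 6.99%, 4.29% and 3.86%, against 3.08%, 3.08% and 2.31% of the members. The comparison by CpG was added after the data were seen, and its part in the low counts was not tested. The 4 members with 20 CpG or more were Ugt8a, Cyp46a1, Cyp26a1 and Cyp51, and they lay 1899, 396, 321 and 214 kb from a liver region.

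**Figure D5:**
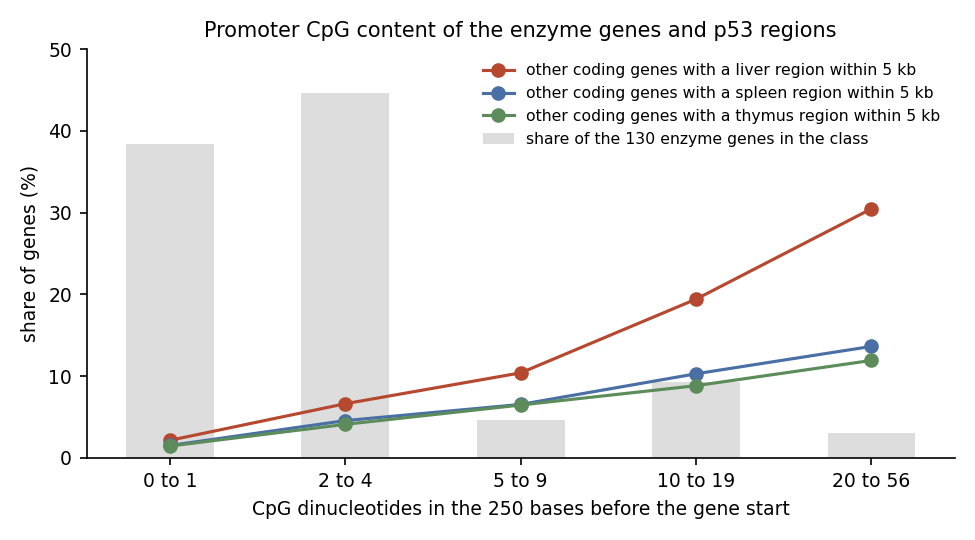
Coding genes that are no members (lines, percent with a region within 5 kb in each list) and the 130 enzyme genes with a promoter entry (grey bars, percent of them in each class), by the number of CpG in the 250 bases before the start (horizontal axis). The liver line runs from 2.14% to 30.5%, and the first 2 bars hold 50 and 58 of the 130 enzyme genes.

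The half-site decamer of p53 was searched in the promoter windows without mismatches, with overlapping matches counted. Its consensus reads the same on both strands, so each match covers both. At least 1 exact match was found for 9 of 130 members (6.92%) and for 8.54% of 17492 coding genes. A pair of matches spaced by 0 to 13 bases was found for 0 members and for 10 coding genes (0.0572%). Stretches of 30 bases with the decamer in capitals are shown for Cyp2c29, Cyp2c39 and Cyp2c38 of the Cyp2c array and for Ugt1a7c. Cyp2f2, the lung and liver naphthalene oxidase, is shown as well. Of the members with a match, Ugt1a7c has the gene body closest to a liver region, but its matches lie at the other end of the gene. Positions are chr19:39286839-39286868 and chr19:39287037-39287066 for Cyp2c29, chr19:39510599-39510628 for Cyp2c39, chr19:39463282-39463311 (minus strand) for Cyp2c38, chr1:88094813-88094842 and chr1:88094943-88094972 for Ugt1a7c, and chr7:27119924-27119953 for Cyp2f2, on the plus strand except where given.
Cyp2c29, distal: tgcatattagAAACATGTTCatttactttt
Cyp2c29, proximal: gctcaaagtgGAGCATGTTTtttcagtgtt
Cyp2c39: ttcacattaaAAACATGTTTgtttacgttt
Cyp2c38: tgcatattagAAACATGTTTgtttactttt
Ugt1a7c, distal: agctgctttgAAACTTGCTTccttttgtat
Ugt1a7c, proximal: ctcaggaaacAAGCATGTTCcttaatcatg
Cyp2f2: gacaacttaaGGGCATGCCCtgcccccaca

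Positions of the decamers are counted from the annotated start of the window that holds them, which need not be the end of the gene. They start 236 and 38 bases before it in Cyp2c29, 226 in Cyp2c38, 178 and 48 in Ugt1a7c and 21 in Cyp2f2. The Cyp2c39 match lies 213 bases before an internal start of that gene, and the window at its first start has none. Measured from the gene body, the nearest liver regions lay 891, 951 and 994 kb from Cyp2c29, Cyp2c39 and Cyp2c38. They lay 14.7 kb from Ugt1a7c and 140.1 kb from Cyp2f2. The region near Ugt1a7c lies beyond the far end of this gene of 125002 bp, away from the matches. None of the 5 genes with a region had a match in its promoter window, where an entry existed. A match is a description of letters, and no match says only that they are not in this window.

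Similarity between paralogs can limit where short reads are placed, and the treatment of reads with several matches is not given by the labels. A word of 36 bases that also occurs in the promoter window of another coding gene was found for 34 of the 130 members (26.2%) and for 19.4% of coding genes. A liver region within 5 kb was found for 1 of these 34 members (2.94%) and for 3 of the other 96 (3.13%). Among all coding genes the shares were 13.3% with such a word and 15.9% without. Words were sought in promoter windows only, where no member had a region, so these shares cannot show how reads were placed elsewhere. Read placement in gene bodies and between genes was not tested.

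Genes of the pathway outside the enzyme families had regions at shares near those of all coding genes, and below them in each list. In 4 lists of 126 genes chosen from general knowledge, 16 had a liver region within 5 kb (12.7%, interval 7.44 to 19.8). A spleen region was found for 8 (6.35%) and a thymus region for 7 (5.56%). The shares of coding genes were 15.2%, 8.11% and 7.17% in liver, spleen and thymus. The difference from the enzyme genes was not tested. Lengths were not matched, with a median of 28843 bp against 21196 bp for the members and 17169 bp over all coding genes. Of 30 sensors and regulators, 6 had a liver region, 2 a spleen region and 1 a thymus region. Ncoa1, a coactivator of nuclear receptors, held one shared by all 3 lists (percentiles 94.6, 90.6 and 89.5). Ppara, Nr3c1 and Rxrb had liver percentiles of 80.95, 65.2 and 29.6, and the regions of Nr3c1 and Rxrb were in the liver list alone. The Ppara region lay 4.75 kb outside the gene, also near Cdpf1 and Pkdrej, with a spleen percentile of 0.576, and the Rxrb region was also near H2-Ke6 and Slc39a7. Nfe2l2, which encodes the antioxidant regulator NRF2 and is named here after its values were seen, had a liver region of the 13.7 percentile on its promoter window, with the nearest spleen and thymus region 41.0 kb away. No region lay within 5 kb of Ahr, Nr1i2 or Nr1i3, the receptors that induce P450 families 1 to 3.

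Other phase 1 enzymes gave 4 of 38 genes in liver and 3 in each of spleen and thymus. Aldh2, the mitochondrial acetaldehyde dehydrogenase, held a region at percentiles of 97.1, 94.0 and 73.4 (chromosome 5, 121581901 to 121582350). Ephx1, microsomal epoxide hydrolase, held one at 93.5, 80.3 and 49.4, and Aox1, aldehyde oxidase, one at 93.0, 78.0 and 60.9. Fmo5 had a liver region 2.71 kb away, which also lay within 5 kb of Prkab2. Other conjugation and cofactor genes gave 4 of 30 in liver and 2 in each of spleen and thymus. Bpnt1, which clears a by-product of sulfation, ranked at 75.6, 21.8 and 29.3, in a region also near Iars2, and Tpmt, Gsr and Gclc, of methylation and of glutathione recycling and synthesis, ranked at 32.6, 28.9 and 11.3 in liver. The Gsr region lay inside the gene, whereas those of Tpmt and Gclc lay 0.163 and 3.585 kb outside. The Tpmt region was also near Kdm1b. Of 28 transporters, 2 had a liver region: Abcb4, the phospholipid pump of bile, at 98.5, and Abcc6 at 33.8, 2.91 kb away and also near Nomo1.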

How the data were processed

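The deposited files are 3 lists of regions, 1 per organ, each with 6 columns and no header. Genome build mm10 is given by the submitters' processing notes. The deposited region score is a value of the authors on a scale not given in the sources used here, and neither are the aligner, the region caller and any pooling or subtraction. Scores were turned into rank percentiles within a list, ties averaged. Genes, starts and strands came from RefSeq tables of GRCm38.p6, the assembly of mm10. Exons and introns were not told apart. Letters were at hand for the promoter windows alone, so the sequences of the regions themselves were not searched. A region counted for a gene when at least 1 bp lay inside it or within 5 kb, and distances run from gene end to region end. The interval steps were tested on simulated data. Python 3.11.15, pandas 2.3.3 and SciPy 1.17.1 were used.

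Members and gene lists were chosen with earlier results of these data known. Named members were those with a region in any list, the 5 nearest beyond 5 kb in liver (with ties in the Ugt1a locus), the 5 liver-expressed ones farthest from a liver region and, in each pathway list, up to 5 with the highest liver percentile; textbook examples were added. The values of 1 pathway gene are not reported here. Alternatives were windows of 1 and 10 kb, the upper 50% of regions by score, lists shortened to 2405 regions, region midpoints, the nearest coding gene alone and loci counted once. No p-value is given, because 1 list per organ has no replicates.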

Additional observations from a re-analysis of the deposited data

How the results depend on the processing

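The counts of members with a region moved by over 1.5 times in liver alone: to 2 with the upper 50% of regions by score (8.36% of coding genes) and to 3 with the list shortened to 2405 regions (10.2% of coding genes), against 5. Cyp4f14 and Gstp3 were lost under both, and Cyp4f17 under the first. With the upper 50%, spleen and thymus had 4 members each (2.50%), against 3.34% and 3.07% of coding genes, so that the gap there was much narrower than with all regions. Windows of 1 and 10 kb, midpoints and the nearest coding gene alone gave 5 to 6 members in liver, 5 in spleen and 4 in thymus. Loci counted once change the unit, with 4 of 65 loci in liver (6.15%), 4 in spleen (6.15%) and 3 in thymus (4.62%). These shares are higher than those of the members, and no share of coding genes was computed beside them. What stands beside the members moved more. Against 16.9%, 8.47% and 7.33% of other coding genes at the members' lengths in liver, spleen and thymus, the share was 6.99%, 4.29% and 3.86% in the same promoter CpG classes, 4.21%, 2.67% and 2.36% in tandem families, and 6.07%, 3.78% and 3.27% in tandem families without Olfr and Vmn genes, comparisons chosen after the data were seen. The 130 members with a promoter entry, at 3.08%, 3.08% and 2.31%, lie below the first of these 3 in every list. The 124 members in arrays, at 3.23%, 3.23% and 2.42%, lie below the second in liver and above it in spleen and thymus. They lie below the third in every list. Read depth is unknown, and a gene outside the lists is not shown to lack p53 binding.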
